A study of Mus musculus with 7 samples.

Results

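Intergenic CpG sites far from the transcript starts listed in the deposited tables and outside CpG islands and their shores (open sea) were examined in mouse embryonic stem cells with and without the methylation maintenance factor UHRF1. They were chosen by annotation alone, as sites that the deposited tables list as intergenic, outside islands and shores, and at least 50 kb from the start of the nearest listed transcript. This gave 618 of 18189 sites in the table that holds the UHRF1 rescue experiment (rescue table) and 721 of 21989 sites in the table that holds the Mof knockdown (knockdown table). No methylation level entered the rule. Earlier results of these data were known when it was set, and the tables list only sites read in every library.

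Methylation was read by reduced representation bisulfite sequencing with a double-enzyme digest, in 7 libraries of J1 mouse embryonic stem cells kept in serum medium with leukemia inhibitory factor. The groups were wild-type cells (2 libraries), Uhrf1-/- cells (2 libraries), Uhrf1-/- cells carrying wild-type human UHRF1 (wild-type rescue, 1 library), Uhrf1-/- cells carrying human UHRF1 with the lysine-to-arginine changes K667R, K668R and K670R (3KR rescue, 1 library), and cells with a stable knockdown of Mof (1 library). Both rescues therefore lacked mouse Uhrf1 and received the human protein, and neither the amount of UHRF1 nor the degree of Mof depletion is given in the labels. The wild-type libraries are the same in both tables, and the labels name no separate cultures behind the libraries of a group, so the p-values reflect the spread of these libraries alone, and that spread may be technical.

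UHRF1 recognises CpG sites that carry methylation on the old strand alone after replication and brings the maintenance methyltransferase DNMT1 to them. MOF is a lysine acetyltransferase, best known for acetylating histone H4, and the series title concerns its acetylation of UHRF1. Intergenic DNA away from CpG islands is the part of the mammalian genome that is methylated by default, and much of it consists of old transposon copies that methylation helps to keep silent.

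Sequence is shown for the single site of the set that fell within a RefSeq promoter window, where no methylated read was seen in either rescue. As the only site in such a window, it does not stand for the sequence around the other sites. The window runs from before to after the start of the noncoding gene Gm35420 at chr11:104030230-104030529 on the plus strand (RefSeq, GRCm38.p6, the assembly also called mm10), and capitals mark the CpG whose minus-strand cytosine, at position 104030276, was read.

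Gm35420: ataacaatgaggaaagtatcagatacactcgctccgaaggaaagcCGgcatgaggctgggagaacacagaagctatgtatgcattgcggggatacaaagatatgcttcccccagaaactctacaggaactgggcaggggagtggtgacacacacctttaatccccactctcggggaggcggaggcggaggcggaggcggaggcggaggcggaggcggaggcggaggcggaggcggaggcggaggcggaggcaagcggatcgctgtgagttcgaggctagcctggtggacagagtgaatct

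The window held 20 CpG dinucleotides and was 59.7% G and C. The transcript start listed for this site in the table lay 50.7 kb away. At the marked CpG, 3 of 7 reads were methylated in wild-type library 1 and 2 of 5 in wild-type library 2. No methylated read was seen among 11 and 5 reads of the Uhrf1-/- libraries, 7 reads of the wild-type rescue and 9 reads of the 3KR rescue, which leaves Wilson 95% upper bounds of 25.9%, 43.4%, 35.4% and 29.9%. Over the 4 neighbouring sites of the set, the mean level was 42.0% and 57.2% in wild type, 6.82% and 0% in Uhrf1-/-, 14.6% after wild-type rescue and 0% after 3KR rescue. The wild-type libraries were the only high ones in this region.

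The sites were shallowly read. In the rescue table the median was 8 and 18 reads per site in the wild-type libraries, 13 and 11 in Uhrf1-/-, 25 after wild-type rescue and 14 after 3KR rescue, from 6304 reads over the set in the shallowest library to 21342 in the deepest. The table lists sites with at least 5 reads in every library. Neighbouring sites were often read by the same fragments: joined where they lay within 300 bases, the 618 sites formed 250 regions, of which 85 were single sites, and the 721 sites of the knockdown table formed 265 regions. The sites lay on 20 chromosomes, 50.01 to 456 kb from the listed start with a median of 80.3 kb. Against RefSeq gene models the set was intergenic with few exceptions, since 53 of the 618 sites fell inside 24 long noncoding RNA genes and 0 inside protein-coding genes. Of the 721 sites of the knockdown table, 69 fell inside 23 RefSeq genes, with 4 of these sites in protein-coding genes.

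Loss of Uhrf1 removed most methylation from these sites. The mean over the 618 sites was 63.8% and 64.2% in the wild-type libraries and 12% and 13.6% in the Uhrf1-/- libraries. The groups did not overlap, at 64.0% ± 0.292 (SD, n = 2) against 12.8% ± 1.12 (SD, n = 2), a difference of -51.2 percentage points. With 2 libraries against 2 the exact permutation test gave p = 0.33, the smallest it allows. The fall was seen on all 18 autosomes with at least 10 such sites, from -59.1 to -34.4 points. Of the 618 single sites, 545 were lower, 30 higher and 43 equal. Over all 18189 sites of the table, 13363 were lower, 1276 higher and 3550 equal.

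Highly methylated sites disappeared in Uhrf1-/-. In wild type, 42.7% and 46.1% of the sites were over 80% methylated, and 15.4% and 13.4% had no methylated read. In Uhrf1-/-, 0 of the 618 sites were over 80% in either library, and 49.4% and 45.5% had no methylated read. Shares of sites at either extreme depend on the reads per site, which differed between libraries, and no correction for depth was made. Sorted by wild-type library 1 and read in the other libraries, the 264 sites over 80% stood at 84.6% in wild-type library 2 and at 16.8% and 18.7% in Uhrf1-/-. The 110 sites under 20% stood at 12.3% in wild-type library 2 and at 4.39% and 3.58% in Uhrf1-/-.

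**Figure D1:**
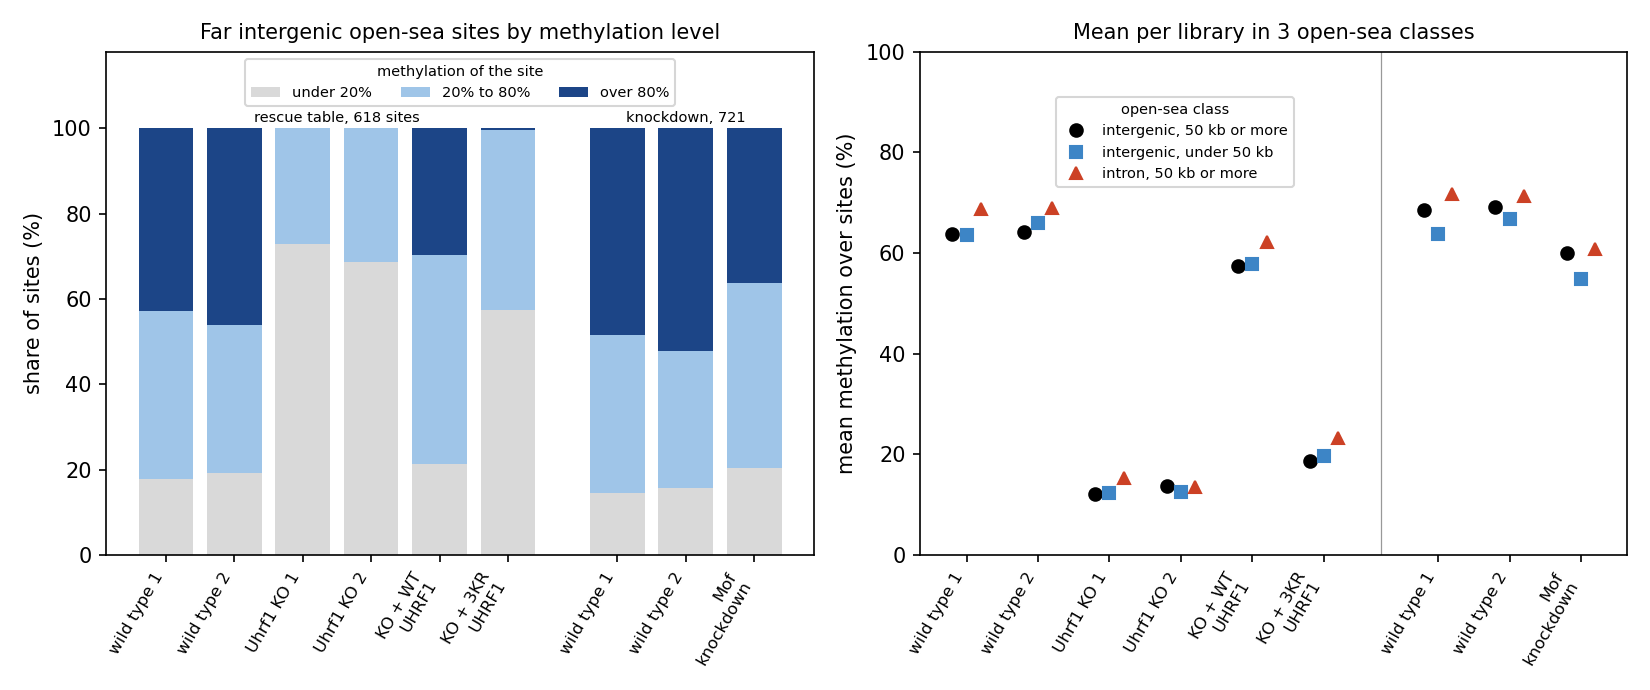
Left, share of far intergenic open-sea sites (%) under 20%, from 20% to 80% and over 80% methylated in each library of the rescue table (618 sites) and of the knockdown table (721 sites). Right, mean methylation over sites (%) per library for these sites and for the other open-sea classes, 1 point per library and class; Uhrf1-/- and 3KR rescue libraries lie under 25% in each class, and the wild-type rescue lies at 57.4% for the far intergenic sites.

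By size alone, 91 of the 126 far intergenic sites with at least 10 reads in the 4 libraries were at least 20 points lower in Uhrf1-/- and 0 that much higher, where the shares over all such sites were 54.6% and 0.0652%. The methylated and unmethylated reads of each site were then tested by edgeR (quasi-likelihood), fitted over the whole table. Calls were made at 0.05 after Benjamini-Hochberg adjustment where the change also reached 20 points. Of the 126 sites, 122 could be tested, 62 were called lower in Uhrf1-/- and 0 higher. Without adjustment, 79 were lower and 0 higher at p under 0.05. Among all sites tested 38% were called lower. With limma on the methylation level the count was 53 of 126 (29.3% of all sites), and with limma on the logit scale 79 (45%), with 0 higher in both. By edgeR, 48.9% of intergenic open-sea sites under 50 kb were called lower, against 50.8% of the far intergenic sites. For open-sea introns at least 50 kb from a start it was 49.4%. By size alone the same classes stood at 78.4% and 77.6%, against 72.2%. The 62 called sites had a wild-type median of 88.3% (57.0% to 100%) and an Uhrf1-/- median of 10.3%. Since calls required a change of at least 20 points on the same reads, this contrast follows in part from the choice. Of the 60 not called, 28 were under 20% in wild type. These calls rested on having both libraries of a group: without wild-type library 1, wild-type library 2 or Uhrf1-/- library 1 the count was 0 (119, 58 and 74 lower without adjustment). When Uhrf1-/- library 2 was left out it was 34.

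Reads summed over each region gave more calls. Of 170 far intergenic regions tested, 123 were lower in Uhrf1-/- and 0 higher by edgeR with the same adjustment (134 lower and 0 higher unadjusted). This is 72.4%, where 63.9% of all regions of the table were called lower. For regions of intergenic open-sea sites under 50 kb the share was 75.7%, and for open-sea introns at least 50 kb from a start 78.1%. Of 171 far intergenic regions, limma called 123 on the methylation level (59.3% of all regions) and 139 on the logit scale (67.4%), with 0 higher. Leaving out wild-type library 1 gave 99 regions, leaving out wild-type library 2 gave 93, and the count was 0 without either Uhrf1-/- library (97 and 110 lower unadjusted).

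Regions with large falls are described first. Gene names below are those of the nearest RefSeq protein-coding gene and serve as landmarks, mostly far away. A 6-site region at chr8:112120670-112120756 (100 kb from Terf2ip, which encodes a telomere-protecting protein) was the best covered, with 131 to 444 reads per library. It stood at 95.5% and 92.8% in wild type, 23.8% and 22.9% in Uhrf1-/-, 93.2% after wild-type rescue and 37.6% after 3KR rescue (edgeR adjusted p = 3.1e-07 for Uhrf1-/- against wild type). The wild-type rescue lay with wild type, and the 3KR rescue lay between it and Uhrf1-/-, nearer to the latter.

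Another region on the same chromosome, chr8:92546322-92546410, lies 128 kb from Irx6, an Iroquois homeobox gene. It had the largest fall, from 100% and 95.8% to 4.76% and 12.1% (edgeR adjusted p = 3.1e-07), and both rescues stayed below wild type, at 55.1% for the wild-type rescue and 4.76% for the 3KR rescue. A region at chr4:125717063-125717203, 2.89 kb from a RefSeq model of the kainate receptor gene Grik3 although 182 kb from the transcript start listed in the table, stood at 87.5% and 91.5% in wild type. It stood at 12.5% and 0% in Uhrf1-/-, at 87.2% in the wild-type rescue and at 37.8% in the 3KR rescue (edgeR adjusted p = 0.00047). Here the wild-type rescue lay just below both wild-type libraries, and the 3KR rescue lay between it and Uhrf1-/-.

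Other large falls were seen at chr4:120224877-120225014 (inside the noncoding gene Gm36134, 42.1 kb from Foxo6), from 90.0% and 85% to 12.5% and 0%, and at chr4:21078915-21079040, from 94.4% and 75.7% to 0% and 11.8%. At chr2:171905976-171906095 (130 kb from Cbln4, which encodes a secreted synaptic protein) the level fell from 66.7% and 90.9% to 0% in both Uhrf1-/- libraries. All 3 were called lower by the edgeR region test. Across the 32 regions that had 2 or more sites of at least 10 reads in every library (covered regions), the median difference was -46.9 points. Both Uhrf1-/- libraries lay below both wild-type libraries in 31, and 25 were called, where 63.9% of all regions were. Orders of libraries, here and below, were counted in covered regions only and not over all regions of the table. They do not set these regions apart from the rest.

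The exception among the covered regions was unmethylated from the start. At chr6:20534041-20534139, 437 kb from the listed start and 681 kb from the potassium channel gene Kcnd2, the level was 0% and 3.52% in wild type, 0% and 4.88% in Uhrf1-/-, 1.43% after wild-type rescue and 2.31% after 3KR rescue, from 49 to 213 reads. No library stood apart there.

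**Figure D2:**
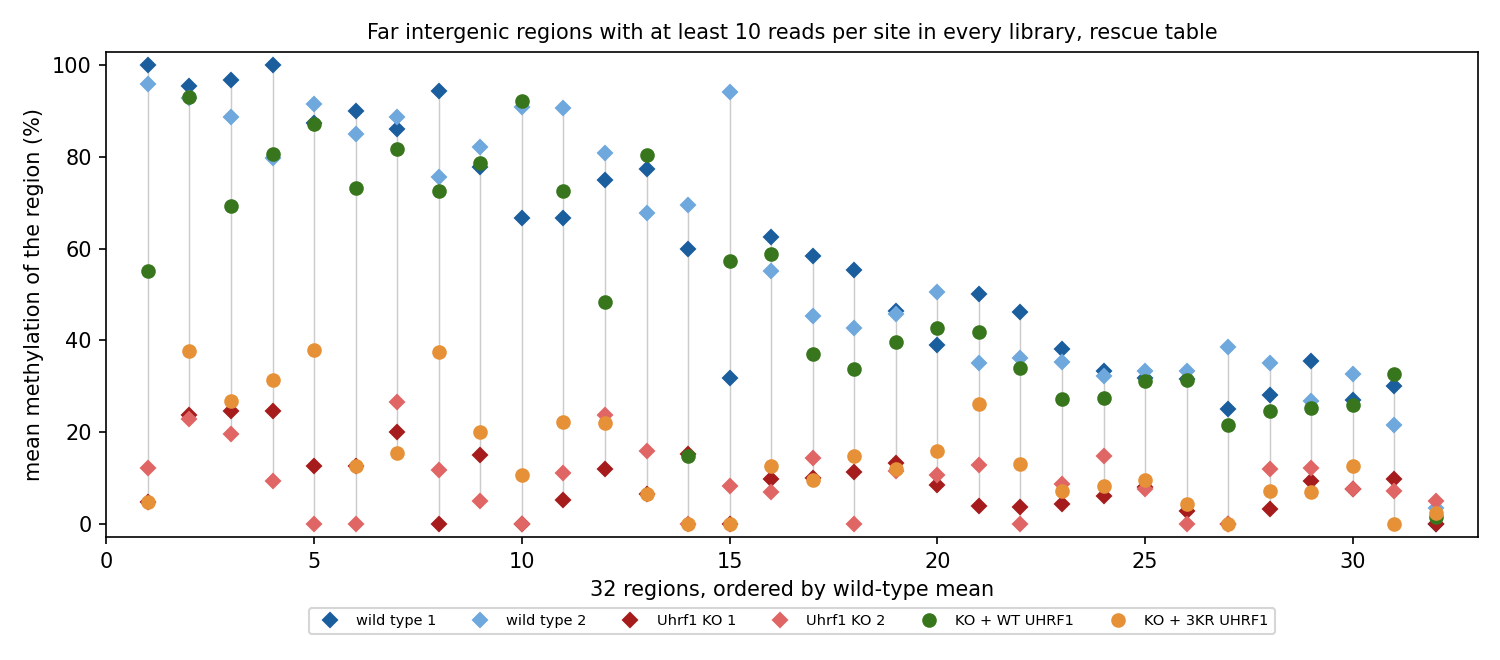
Mean methylation (%) of 32 far intergenic regions that had 2 or more sites of at least 10 reads in every library of the rescue table, ordered by their wild-type mean; each point is 1 library and grey lines join the libraries of a region. Both Uhrf1-/- libraries lie below both wild-type libraries in 31 regions, and the 3KR rescue lies below the wild-type rescue in 31.

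Some methylation was left without Uhrf1. The Uhrf1-/- mean was 20.1% ± 1.75 of the wild-type mean (SD, n = 2). The highest Uhrf1-/- mean among the covered regions was that of the region near Terf2ip, given above. Next came 20% and 26.5% at chr3:56369651-56369790 (186 kb from Nbea, a gene for a vesicle-traffic protein), with wild type at 86.1% and 88.8%. It was followed by 24.6% and 19.7% at chr3:22704494-22704640 (488 kb from Tbl1xr1), with wild type at 96.9% and 88.6%. These 3 regions were all above 85% in both wild-type libraries. After them came chrX:45641622-45641770 at 11.9% and 23.7%, with wild type lower, at 74.9% and 80.9%.

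Sites with methylation left in one Uhrf1-/- library also had more in the other. Over 292 sites with at least 10 reads in both Uhrf1-/- libraries, the 28 sites at 30% or more in library 1 averaged 22.8% in library 2, against 7.83% for the 126 sites at 0% in library 1. Chosen on library 2, the 35 sites at 30% or more averaged 19.7% in library 1, against 6.13% for the 113 sites at 0%. The same 28 sites averaged 40% in the 3KR rescue, against 9.20% for the 126. The 28 sites were also higher in the other groups, at 74.4% in wild type and 84.5% in the wild-type rescue, against 48.1% and 43.5% for the 126. Pearson's r over these sites was 0.365 between the Uhrf1-/- libraries and 0.712 between the wild-type libraries, as a description of sites that share fragments and depth. Only 3 of the 618 sites were at 50% or more in both Uhrf1-/- libraries, and each had 5 to 12 reads there.

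Human wild-type UHRF1 brought most of the methylation back. The mean rose from 12.8% in Uhrf1-/- to 57.4% in the single wild-type rescue library, 44.5 points higher, with 87.0% of the loss regained (86.4% to 87.6% over the pairs of wild-type and Uhrf1-/- libraries). It was higher on all 18 autosomes. Of 249 sites with at least 10 reads in the 3 libraries compared, 181 were at least 20 points higher than Uhrf1-/- and 0 that much lower, where the shares over all sites were 61% and 0.122%. Fisher's exact test between libraries, which compares libraries and not conditions, called 154 higher and 0 lower (44.5% and 0.0122% of all sites). Limma with the spread of the replicated groups called 53 higher and 0 lower (18.6% and 0.0122% of all sites), with 123 higher and 0 lower unadjusted.

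The wild-type rescue stopped short of wild type. Its mean of 57.4% lay below both wild-type libraries (63.8% and 64.2%), a difference of -6.65 points from their mean, and it was lower on 15 of 18 autosomes. Sites over 80% methylated made up 29.8% of the set, against 42.7% and 46.1%. Of 205 sites with enough reads, 49 were at least 20 points lower than wild type and 18 higher, where the shares over all sites were 17% and 8.56%. Between the wild-type libraries themselves, 29 of 217 sites were that much lower in library 2 and 33 higher (9.07% and 13.3% over all sites). Fisher's exact test called 7 lower and 5 higher (2.49% and 1.59% of all sites), and limma 3 lower and 0 higher (26 and 12 unadjusted, with adjusted calls at 1.67% and 1.67% of all sites).

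The shortfall differed between regions. At chr8:92772233-92772381, 54.9 kb from the matrix metalloprotease gene Mmp2, wild type stood at 60% and 69.5%, Uhrf1-/- at 15.3% and 0%, the wild-type rescue at 14.8% from 223 reads and the 3KR rescue at 0%. The wild-type rescue was thus in the Uhrf1-/- range there. At chrX:45641622-45641770 the wild-type rescue was at 48.3% against 74.9% and 80.9% in wild type, with Uhrf1-/- at 11.9% and 23.7% and the 3KR rescue at 21.9%. In 20 of the 32 covered regions the wild-type rescue lay below both wild-type libraries, and in 3 above both. The latter were chr2:171905976-171906095 at 92.3%, chr16:80293335-80293483 at 80.4% (wild type 77.5% and 67.9%) and chr15:51228173-51228220 at 32.6% (wild type 30% and 21.4%).

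UHRF1 with the 3 substitutions restored little. The 3KR rescue library averaged 18.6% over the 618 sites, against 57.4% in the wild-type rescue, a difference of -38.8 points that was negative on all 18 autosomes. Of 381 sites with at least 10 reads in both, 263 lay at least 20 points below the wild-type rescue and 3 above it, where the shares over all sites were 57% and 0.966%. Fisher's exact test between the libraries called 225 lower and 1 higher (45.9% and 0.244% of all sites), and limma 35 lower and 1 higher (126 and 3 unadjusted, with adjusted calls at 9.25% and 0.16% of all sites). With 1 library of each rescue there is no replicate check, and a difference between the cell lines other than the substitutions cannot be told apart from their effect.

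The largest differences between the rescues reached most of the methylation range. At chr2:171905976-171906095 the 3KR rescue was at 10.5% against 92.3%, and at chr16:80293335-80293483 it was at 6.58% against 80.4%. The 9-site region chr13:41980412-41980538 lies 71.4 kb from Hivep1, a zinc-finger transcription factor gene. Only 4 of its sites had at least 10 reads in every library, with 40 to 62 summed reads per library. Over these 4 sites, wild type stood at 77.7% and 82.2%, Uhrf1-/- at 15.0% and 5%, the wild-type rescue at 78.6% and the 3KR rescue at 20%. The 3KR rescue was below the wild-type rescue in 31 of the 32 covered regions.

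Compared with no UHRF1 at all, the 3KR rescue was slightly higher. Its mean was 5.73 points above Uhrf1-/- (18.6% against 12% and 13.6%), with 11.2% of the loss regained (9.75% to 12.6% over library pairs), and higher on 17 of 18 autosomes. Of 206 sites with enough reads, 34 stood 20 points or more higher and 10 lower, where the shares over all sites were 15.8% and 2.8%. Between the Uhrf1-/- libraries themselves 39 of 292 sites were that much higher in library 2 and 26 lower (8.41% and 7.55% over all sites). Fisher's exact test called 1 higher and 0 lower (1.41% and 0% of all sites), and limma 4 higher and 0 lower (14 and 3 unadjusted, with adjusted calls at 1.55% and 0.0274% of all sites), so at single sites the gain was mostly not detectable at this depth.

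In the 32 covered regions, the 3KR rescue stood 20 points or more above Uhrf1-/- in 2 and that much below in 0. The regions with the largest differences follow. At chr4:21078915-21079040 the 3KR rescue reached 37.5% against 0% and 11.8% in Uhrf1-/-. At the region near Grik3 it reached 37.8% against 12.5% and 0%. A region at chr2:27613326-27613468, 63.0 kb from the retinoid receptor gene Rxra, stood at 26.1% against 3.85% and 12.9%, from 46 reads in the 3KR rescue. In each of these regions the Wilson interval of the 3KR rescue overlapped that of 1 Uhrf1-/- library. In 16 of the 32 covered regions the 3KR rescue lay above both Uhrf1-/- libraries and in 4 below both. The level in the 3KR rescue followed the wild-type level: the 264 sites over 80% in wild-type library 1 stood at 26.0% in the 3KR rescue and at 72.3% in the wild-type rescue, and the 110 sites under 20% at 2.7% and 13.6%.

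The mean of these sites was modestly lower in the Mof knockdown. In the knockdown table the 721 sites averaged 68.5% and 69.1% in the wild-type libraries (68.8% ± 0.380, SD, n = 2) and 59.9% in the single Mof knockdown library, a difference of -8.89 points that was negative on 16 of 18 autosomes. The size depended on how deep sites were weighted: with reads pooled over all sites it was -2.74 points. The pooled levels were 65.3% and 62.6% in wild type and 61.2% in the knockdown. The wild-type libraries thus lay about as far apart as the pooled difference. Sites over 80% methylated made up 36.2% of the set, against 48.5% and 52.1% in wild type. Sorted by wild-type library 1, the 350 sites over 80% stood at 87.3% in wild-type library 2 and 78.4% in the knockdown, and the 267 sites from 20% to 80% at 67.9% and 56.0%. The fall was thus not limited to either class.

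Few single sites stood out in the knockdown. Of 169 sites with at least 10 reads in the 3 libraries, 35 were at least 20 points lower than wild type and 11 higher, where the background was 21.2% and 4.34%. Between the wild-type libraries, 32 of 247 sites were that much lower and 41 higher in library 2 (8.91% and 13.9% over all sites). Fisher's exact test against both wild-type libraries called 1 site lower and 1 higher (1.98% and 0.599% of all sites), and limma 2 lower and 0 higher (23 and 5 unadjusted, with adjusted calls at 2.02% and 0.764% of all sites).

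In the 23 regions with 3 or more sites of at least 10 reads, the knockdown lay below both wild-type libraries in 12 and above both in 3. This was not counted over all regions of the table. The largest fall was at chr2:170208389-170208491, 56.7 kb from the zinc-finger gene Zfp217, where wild type stood at 49.8% and 39.1% and the knockdown at 8%. A 10-site region at chrX:82269123-82269279, 545 kb from the dystrophin gene Dmd, had 8 sites with at least 10 reads in every library. Over these it stood at 66.1% and 53.6% in wild type and 25.0% in the knockdown. It is one of the regions of shared spacing described below, where the level of a single copy may be uncertain. At chr16:68625554-68625658 the knockdown was at 56.8%, against 85% and 93.2% in wild type. The region near Mmp2 stood at 23.5% against 46.7% and 61.9% over the sites covered in this table, and chrX:14489107-14489238 at 46.7% against 70.7% in both wild-type libraries. These 5 regions were named for the largest falls, so the knockdown being the lowest library in each largely follows from that choice.

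Other regions moved by various amounts. The region near Terf2ip stood at 95.5% and 92.8% in wild type and 93.0% in the knockdown, and the region near Irx6 at 100%, 95.8% and 91.5%. The 11-site region at chr8:12214186-12214344, which had the most sites of the 23, stood at 89.1%, 94.7% and 80%. These levels are over the 8 of its sites with at least 10 reads in every library. The largest rise was at chr4:5045850-5045951, from 73.3% and 75% to 93.9%. With 1 knockdown library none of these differences has a replicate check.

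**Figure D3:**
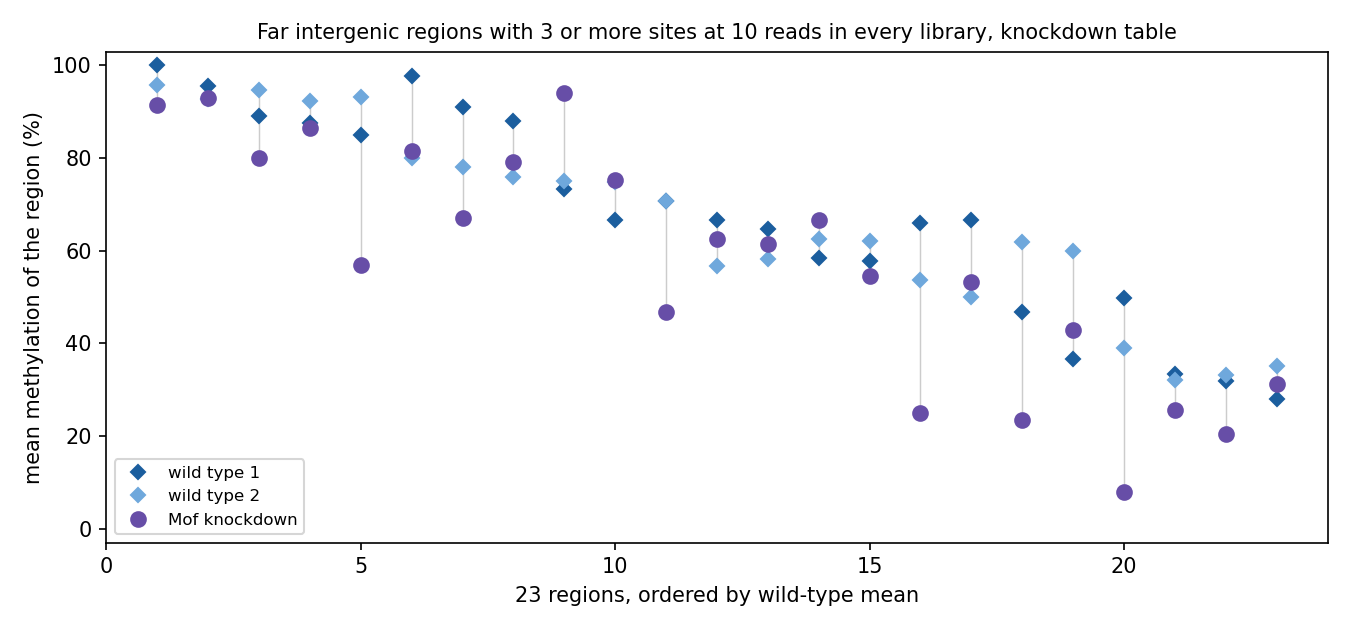
Mean methylation (%) of 23 far intergenic regions that had 3 or more sites of at least 10 reads in every library of the knockdown table, ordered by their wild-type mean; each point is 1 library. The Mof knockdown lies below both wild-type libraries in 12 regions and above both in 3.

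The tables list 403 of these sites in common, which is 65.2% of the rescue set and 55.9% of the knockdown set. Over the shared sites the means were 65.1% and 64.8% in wild type, 12% and 13% in Uhrf1-/-, 58.0% with wild-type UHRF1, 19.3% in the 3KR rescue and 55.8% in the Mof knockdown. All of these comparisons use the same wild-type libraries. The wild-type rescue and the Mof knockdown, the middle levels, are 1 library each, and their difference was not tested.

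The other open-sea classes had similar levels. Intergenic open-sea sites under 50 kb (3491 sites) averaged 63.6% and 65.9% in wild type, 12.4% and 12.5% in Uhrf1-/-, 57.7% after wild-type rescue and 19.7% after 3KR rescue. The gap between the far and the near sites, computed within each library, was compared between wild type and Uhrf1-/- and differed by 1.12 points (exact permutation p = 0.667, 2 against 2 libraries). Open-sea intron sites at least 50 kb from a start (402 sites) averaged 68.7% and 69.0% in wild type, 15.2% and 13.4% in Uhrf1-/-, 62.2% and 23.1% in the rescues with wild-type and 3KR UHRF1. The corresponding change in gap was 3.33 points (exact permutation p = 0.33, the smallest possible). The share of the wild-type level left in Uhrf1-/- was 20.1% ± 1.75 for the far intergenic sites, 19.2% ± 0.145 for the near ones and 20.8% ± 1.90 for the introns (SD, n = 2). The far-minus-near difference of 0.829 points was smaller than the spread between libraries, but it was 3.66 points with pooled reads and -1.48 with at least 10 reads per site, so its direction was not settled.

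Values on either side of the 50 kb threshold are given as a description. The 162 sites from 40 to 50 kb averaged 68.7% and 69.9% in wild type and 11.8% in both Uhrf1-/- libraries, and the 144 sites from 50 to 60 kb 66.0% and 67.1%, and 12.6% and 14.1%. At the far end, the 89 sites at 150 kb or more averaged 62.7% and 64.3% in wild type, 10.3% and 11.3% in Uhrf1-/-, 58.9% after wild-type rescue and 19.1% after 3KR rescue. For the Mof knockdown the far intergenic sites stood at 59.9% and the near ones at 54.8%, with wild type at 68.5% and 69.1% against 63.8% and 66.6%.

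A site's place within its run of neighbours moved with its level in every library. Runs were read 5′ to 3′ on the strand of the sites. In the rescue table the first site of a run (165 sites) averaged 72.5% and 76.0% in wild type and the last site (165 sites) 46.0% and 45.6%, with 70.4% and 67.8% for the 203 sites between. The order held in Uhrf1-/- (15.5% and 18.2% for first sites, 9.89% and 9.54% for last sites), after wild-type rescue (66.4% and 41.2%), after 3KR rescue (22.1% and 14.1%) and in the Mof knockdown (68.1% and 47.7%, in 192 runs). Of the 89 sites under 20% in both wild-type libraries, 54 closed a run and 6 opened one.

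In this kind of library, the ends of restriction fragments are filled in with new nucleotides before bisulfite treatment, so that a cytosine in a filled-in end reports the added nucleotide. Whether the last sites lay in filled-in ends was not tested. Without the last sites the difference was -56.7 points for Uhrf1-/- against wild type, 49.3 points for the wild-type rescue against Uhrf1-/- and -10.3 points for the Mof knockdown against wild type. The near intergenic sites showed the same order, at 71.1% and 73.4% for first sites and 52.1% and 53.1% for last sites in wild type. Over all sites of the table the first sites stood at 57.0% and 59.2% in wild type. There the last sites (43.1% and 44.1%) were hardly lower than those between (43.5% and 45.5%).

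**Figure D4:**
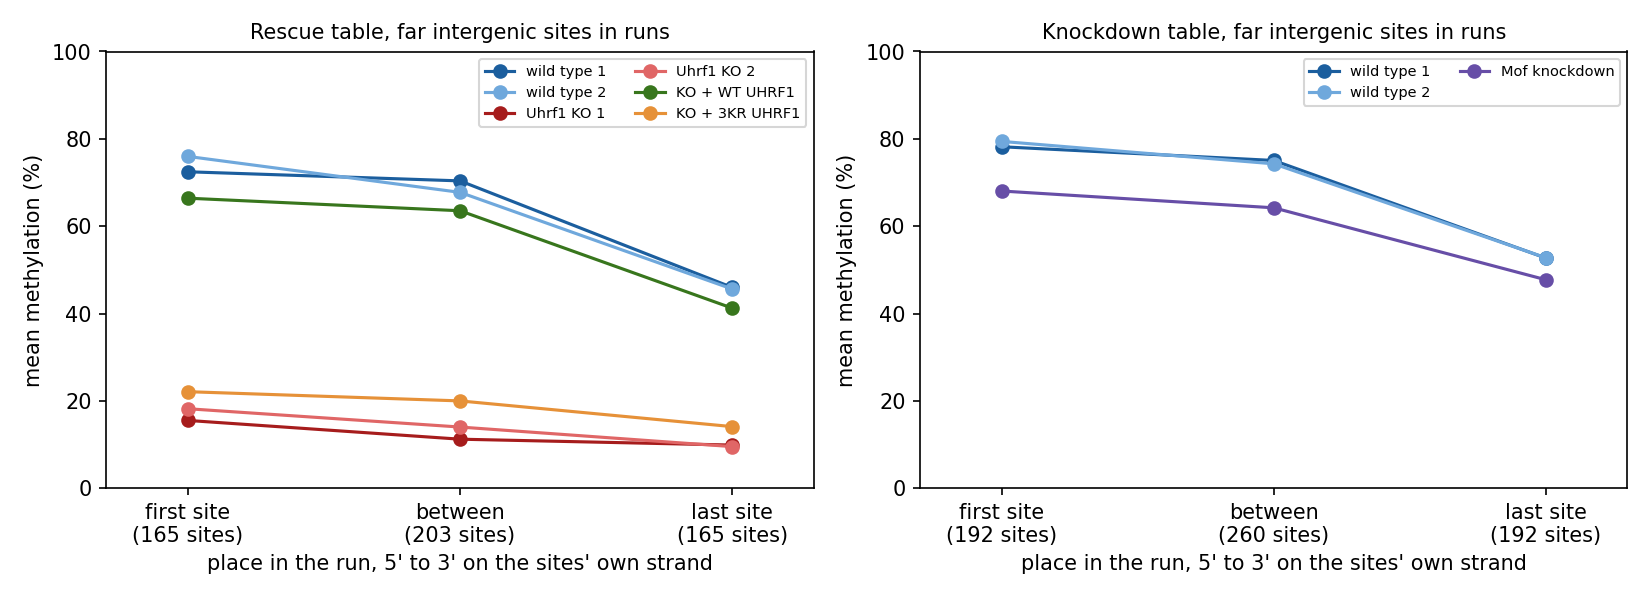
Mean methylation (%) of far intergenic sites by their place in a run of neighbouring sites, read 5′ to 3′ on the strand of the sites, in the rescue table (left) and the knockdown table (right); each line is 1 library. The last site is the lowest in every library, at 46.0% and 45.6% in wild type against 72.5% and 76.0% for the first site.

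Some distances between sites recurred in these runs. Among 777 pairs of sites on the same strand of a region in the rescue set, the commonest distance was 150 bases. It was seen in 19 pairs, in 19 regions on 13 chromosomes, narrowly ahead of 2 bases (18 pairs) and 15 bases (17 pairs). Among the distances of the near intergenic sites, 150 ranked 57th (32 of 4362 pairs). In the 19 far intergenic pairs the upstream site was methylated in wild type, at a mean of 87.1% and 87.5%, and the downstream site was at 18.3% and 6.16%. The downstream site was the lower one in 18 of 19 pairs in each wild-type library. The upstream site fell to 18.1% and 17.6% in Uhrf1-/-, and stood at 74.6% after wild-type rescue and 21.0% after 3KR rescue. In the knockdown table this distance ranked 8th (15 of 1032 pairs, against 25 for 14 bases), and in those 15 pairs the upstream site stood at 90.0% and 88.1% in wild type and 63.2% in the Mof knockdown. Of the 32 covered regions 10 held such a pair, with wild-type means from 29.9% to 51.8%, and edgeR called 5 of these 10 and 20 of the other 22, a difference that was not tested.

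A further group of regions shared a whole pattern of sites, found by searching the 13 regions of 6 to 12 sites in the set against 588 such regions of the table, with at least 6 sites and 75% of the smaller region in register. In the set, 6 regions with 46 sites matched, at chr5:68219383-68219480, chr6:11451394-11451491, chr9:111805368-111805465, chrX:50164805-50164902, chrX:82269123-82269244 and chrX:107737328-107737425, and outside it 4. The typical order of distances was 15, 2, 2, 52, 12 and 14 bases, in either orientation, with some distances split by a further site. No repeat annotation was used here. Where reads of near-identical copies can be placed in more than one location, the level of a single copy is uncertain.

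These regions were less methylated than the rest of the set in wild type and more so in the wild-type rescue. Over their 46 sites the mean was 42.1% and 44.0% in wild type, 9.53% and 14.0% in Uhrf1-/-, 72.4% after wild-type rescue and 20.7% after 3KR rescue. At the other 572 sites it was 65.6% and 65.9%, 12.3% and 13.6%, 56.2% and 18.4%. The wild-type rescue lay above both wild-type libraries in 5 of the 6 regions. Examples are 82.7% against 26.4% and 46.5% at chrX:107737328-107737425 and 76.1% against 36.1% and 46.2% at the chromosome 6 region. At the chromosome 9 region it was at 48.0% between 54.3% and 14.3%. Of the 4 matching regions outside the set, 2 had the wild-type rescue above both wild-type libraries.

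Read depth moved with these regions too. They took 20.2% and 18.9% of the reads of the set in the Uhrf1-/- libraries, against 8.39% and 3.77% in wild type, 2.75% after wild-type rescue and 2.46% after 3KR rescue. The part of this imbalance in the levels was not tested. Of the 30 far intergenic sites on chromosome X, 24 lay in 3 of these regions, and the X sites averaged 46.9% and 45.8% in wild type, 9.74% and 10.8% in Uhrf1-/-, 68.1% after wild-type rescue and 18.3% after 3KR rescue. Over all 30 X sites the wild-type rescue was thus 21.8 points above wild type, while on the autosomes the difference was -8.10 points. The X value rested largely on the regions of shared spacing. At the covered X region outside them, chrX:45641622-45641770, the wild-type rescue was lower, at 48.3% against 74.9% and 80.9% in wild type.

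**Figure D5:**
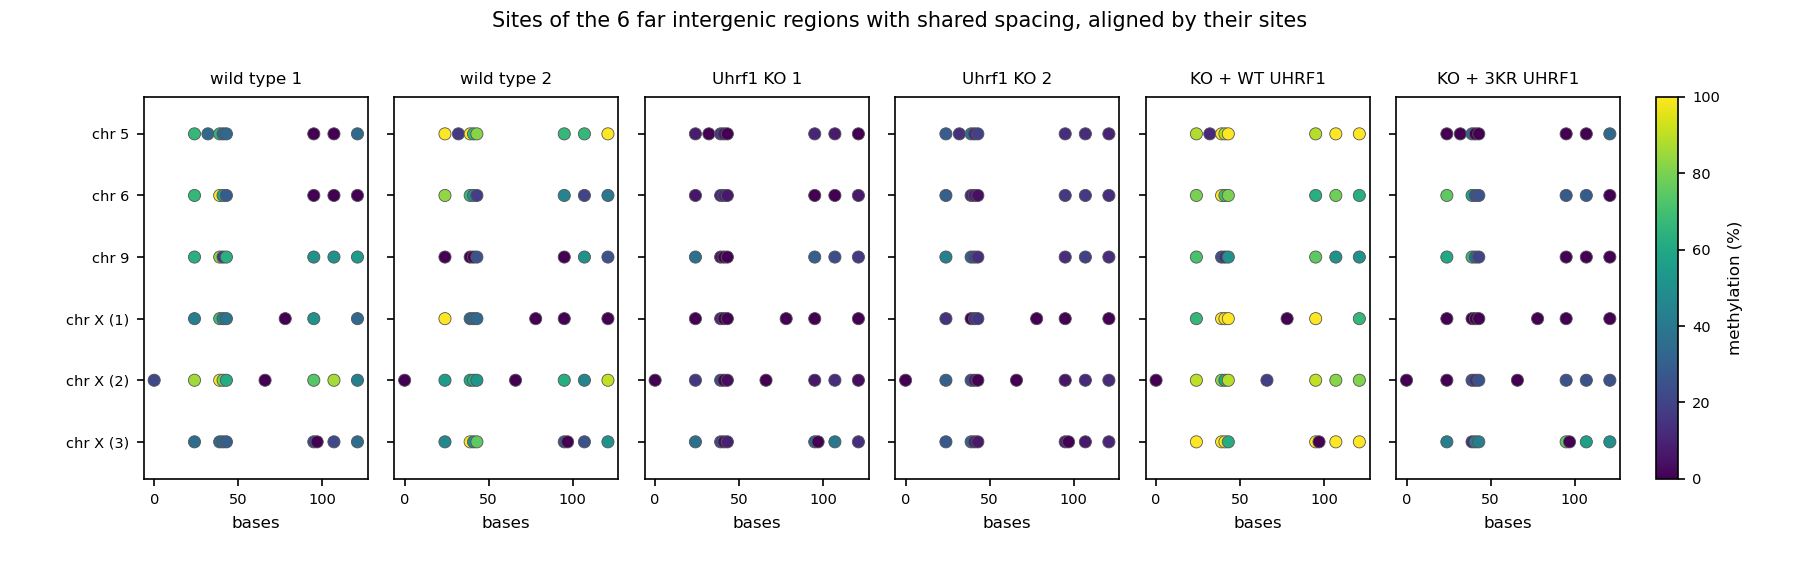
Sites of the 6 far intergenic regions with shared spacing, aligned by their sites (x axis, bases), 1 row per region (the 3 regions of chromosome X in the order of their position) and 1 panel per library; colour gives the methylation of each site (%). Sites recur at the same offsets, and the wild-type rescue panel is the brightest, with a mean of 72.4% against 42.1% and 44.0% in wild type.

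This pattern was seen in 5 regions with 41 sites of the knockdown table. They averaged 41.1% and 48.4% in wild type and 29.1% in the Mof knockdown, and the other 680 sites 70.2%, 70.3% and 61.8%. The chromosome 5 region had no methylated read in the knockdown, against 33.3% and 74.8% in wild type. Its 47 reads there are summed over 8 neighbouring sites, which share fragments. The chromosome 6 region stood at 47.6% against 36.1% and 46.2%. These regions thus differed in direction.

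In the authors' deposited table, whose test is not given in the sources used here, 485 of the 618 sites had a q-value under 0.05 and a level at least 20 points lower in Uhrf1-/-, and 2 a level that much higher (61.3% and 0.269% over all sites). For the 3KR rescue against wild type the authors' deposited table gave 433 lower and 5 higher (53.5% and 0.935%), and for the wild-type rescue 110 lower and 36 higher (13.5% and 6.54%). For the Mof knockdown the authors' deposited table gave 80 of 721 lower and 15 higher (12.3% and 1.98%).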

How the data were processed

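Per the file headers, the authors deposited counts of total, methylated and unmethylated reads per cytosine, strand and library, the fraction of methylated reads, and for each group against wild type a p-value, a q-value and a difference (a score in percentage points). The tools named per the submitters' processing notes are BSMAP 2.73, Trim Galore and cutadapt, with mm10 as the build. Their settings, the methylation caller and the test behind the p-values: not given in the sources used here. Levels were recomputed here from the deposited counts, as methylated over total reads in percent. The headers do not name the sequence context; of the listed sites that lie in RefSeq promoter windows, 558 of 558 in the rescue table and 613 of 615 in the knockdown table were C followed by G.

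The far intergenic sites, the classes beside them and the lists were chosen with earlier results of these data known, and the searches by place in a run and by spacing were made after seeing the data. Groups came from the sample titles. Means are unweighted over sites. Uhrf1-/- and wild type were compared by edgeR (quasi-likelihood) from the methylated and unmethylated counts, all 6 libraries sharing the spread, over 3917 sites and 4462 regions (runs of all listed sites within 300 bases), with Benjamini-Hochberg adjustment over all of them. A site or region needed at least 10 reads in the 4 libraries and both kinds of read. Single-library groups were compared by size (20 points or more, 10 reads or more per library). Fisher's exact test (two-sided, adjusted over all sites) and limma with the spread of the replicated groups were alternatives. Wilson intervals are 95% and cover counting error only, since reads carry no molecular identifiers and neighbouring sites share fragments.

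Replicate libraries differed beyond sampling noise: their chi-square averaged 2.92 per site between the wild-type and 2.23 between the Uhrf1-/- libraries. Regions named in the comparisons had at least 3 sites of at least 10 reads in every library, apart from the Gm35420 region and those of shared spacing, which were named for their sequence window and their pattern after seeing the data; only 15 in the rescue table had, under 20, so at least 2 sites sufficed there (32 regions), and 23 had in the knockdown table. They were named for the most sites, the largest falls and rises in each comparison, and the highest Uhrf1-/- and lowest wild-type levels. Levels of the regions named in the comparisons are means over their sites with at least 10 reads in every library. The listed transcripts are Ensembl identifiers not paired with symbols here, so nearest RefSeq genes (GRCm38.p6) serve as names. The edgeR, limma and Fisher steps were tested on simulated data. R 4.3.3, edgeR 4.0.16, limma 3.58.1, Python 3.11.15, numpy 2.4.6, pandas 2.3.3, scipy 1.17.1 and matplotlib 3.10.9 were used.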

Additional observations from a re-analysis of the deposited data

How the results depend on the processing

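Of 93 alternative values, 47 kept direction and side of the threshold, or moved by less than the spread between libraries. Of the rest, 26 moved further, 17 were weaker, 1 was stronger and 2 reversed direction. Using only sites with at least 10 reads in every library moved the mean differences to -49.4 points for Uhrf1-/- against wild type, 41.6 for the wild-type rescue against Uhrf1-/-, -36.4 for the 3KR against the wild-type rescue, -7.82 for the wild-type rescue against wild type and -7.99 for the Mof knockdown. Pooled reads gave -49.7, 41.8, -37.1, -7.92 and -2.74 points in the same order. With every region counted once, the wild-type rescue stood at -8.50 and the Mof knockdown at -8.39 points from wild type, and with a 100 kb threshold at -6.15 and -7.55. On autosomes alone the wild-type rescue stood at -8.10. Both of the following were chosen after seeing the data: leaving out the regions of shared spacing gave -52.8, 43.2, -37.8, -9.55 and -8.48 points, and leaving out the last site of each run gave -56.7, 49.3, -43.0, -7.41 and -10.3. The 3KR rescue stayed above Uhrf1-/- in the mean under every alternative run. The cause of these shifts was not tested.

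Sites called lower in Uhrf1-/- numbered 198 of 588 tested with at least 5 reads (27.6% of all sites) and 8 of 19 with at least 20 (24.5%). Regions numbered 158 of 243 (55.9% of all regions) and 71 of 90 (64.6%); fewer were tested at 20 reads. Leaving out 1 library gave 0 to 34 sites and 0 to 99 regions. The share of wild-type level left, far minus near sites, was 0.829 points, -1.48 with at least 10 reads, 3.66 with pooled reads, and from -0.309 to 1.97 with 1 library left out. For single-library groups, limma called 53 sites for the wild-type rescue against Uhrf1-/- and 35 for the 3KR against the wild-type rescue. The 3KR rescue against Uhrf1-/- had 1 by Fisher's exact test and 4 by limma, the wild-type rescue against wild type 7 and 3, and the Mof knockdown 1 and 2.

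With the replicate number as a replicate block, edgeR called 28 sites and 109 regions lower. Deviations of same-numbered libraries correlated at 0.00318 over all sites, so the numbers were not shown to pair the libraries.

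Median depth of 8 reads per site in the shallowest library, and 1 library for each rescue and the knockdown, limit what single sites can show.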
